A study of Rattus norvegicus with 12 samples.

Results

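Voltage-gated potassium channel genes (Kv genes) were described here in rat hippocampal cultures whose network activity had been raised with picrotoxin. They were chosen by symbol, as table rows named Kcn followed by one of the letters a, b, c, d, e, f, g, h, q, s or v and a digit, together with Kcnab. That pattern alone matched 46 rows, and the 3 Kcnab rows were added because the choice was meant to hold them. Of these 49 rows, 37 had a mean of 10 or more scaled fragment counts over the 6 polyA libraries and were kept, out of 26404 genes in the table. The 37 genes were 6 Kcna, 2 Kcnb, 4 Kcnc, 3 Kcnd, 7 Kcnf, Kcng, Kcns or Kcnv, 8 Kcnh, 4 Kcnq and 3 Kcnab genes.

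Primary hippocampal cells of Sprague-Dawley rats were taken at embryonic day 18 and grown as cultures enriched for neurons. Vehicle (control) or picrotoxin, a blocker of GABA-A receptor chloride channels, was given at 18 days in vitro for 48 h, and RNA was taken at day 20. Each arm had 3 polyA libraries, numbered 3, 10 and 20 in the labels, which also call them biological replicates. The labels give no transgene or sort, and small RNA libraries bearing the same numbers were not used here.

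Kv channels open when the membrane depolarizes and let potassium out, which ends the action potential and sets how often a neuron can fire. A channel is a ring of pore subunits. Kcna (Kv1), Kcnb (Kv2), Kcnc (Kv3), Kcnd (Kv4), Kcnq (Kv7) and Kcnh (EAG, ERG and ELK) genes encode subunits that form channels by themselves. Kcnf, Kcng, Kcns and Kcnv encode silent subunits, which work only when mixed with Kv2 subunits, and Kcnab genes encode cytoplasmic beta subunits that bind Kv1 channels. In hippocampal neurons Kv1 channels sit along axons, Kv2 channels on cell bodies, Kv4 channels in dendrites, Kv3 channels are typical of fast-spiking cells, and Kv7 channels carry the M current that restrains repetitive firing.

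The deposited value is a fragment count per gene divided by one size factor per library, called the scaled count here. It is not divided by gene length. Library totals lay between 12304776 and 12982866 scaled counts, or 11895725 to 13944774 fragments before that division. Changes were tested with limma on log2(scaled count + 1) over the 12605 genes with a mean of 10 or more, and p-values were adjusted over all of them (Benjamini-Hochberg, threshold 0.05). Libraries of the same number deviated together from their arm means, so a fit with that number as a block is given beside results whose call it changes. Per library, the 10 neuron markers summed to 108792 to 119320 in controls and 94549 to 101889 after picrotoxin, and the 11 excitatory neuron markers found in the table to 27444 to 29377 and 18135 to 22838, so that neither overlapped. Of the neuron markers 0 rose and 1 fell, and 0 and 4 with the block. Among the excitatory ones Slc17a6 rose while Camk2a and Neurod1 fell, and with the block 2 rose and 6 fell. Inhibitory neuron markers summed to 20565 to 30971 and 22190 to 36278, higher after picrotoxin within each replicate number, and 0 were called without the block while 4 rose and 1 fell with it. Astrocyte markers summed to 7976 to 10445 and 7560 to 9899, lower within each number, and 0 were called without the block while 4 fell with it. Microglia markers summed to at most 28 in any library, with Itgam at 0 in all, oligodendrocyte lineage markers to 718 to 842 and 735 to 855, with Sox10 at 0. Vascular and fibroblast markers summed to 1168 to 2015 and 1395 to 2153, and dividing cell markers to 872 to 1041 and 918 to 1116. Both sums were higher after picrotoxin within each replicate number, and 0 of these markers were called without the block. With it, 2 of 3 tested vascular or fibroblast markers and 1 of 7 tested dividing cell markers rose, and 0 fell. Of 6 tested oligodendrocyte lineage markers, 0 were called without the block, and 1 rose and 1 fell with it. The part of these shifts in the changes of Kv genes was not tested, and in bulk RNA fewer cells of a type cannot be told apart from less RNA per cell.

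All Kv subfamilies with pore subunits were present, and levels between genes can be compared only per length, with the FPKM per group in the authors' deposited table. The highest FPKM in control were those of the beta subunit genes Kcnab2 (46.4) and Kcnab1 (43.3). High levels in that table were also those of the silent subunits Kcnf1 (36.8) and Kcnv1 (34.7) and of Kcna1 (30.8), Kcnh3 (30.5) and Kcnd2 (26.1). Of the 37 genes, 21 had 10 FPKM or more in control and 3, among them Kcna5 and Kcnh6, stayed under 1 in both arms. Summed over the 37 genes, the authors' deposited FPKM came to 573.9 in control and 561.3 after picrotoxin. The Kcna share of this sum was 15.9% and 19.2%, and the Kcnab share 15.9% and 13.8%. These values have no error, since the authors combined the replicates, and an FPKM also depends on the gene model, which for Kcna1, Kcna3, Kcna5 and Kcnf1 spans only 1488, 1578, 1809 and 1518 bases.

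**Figure D1:**
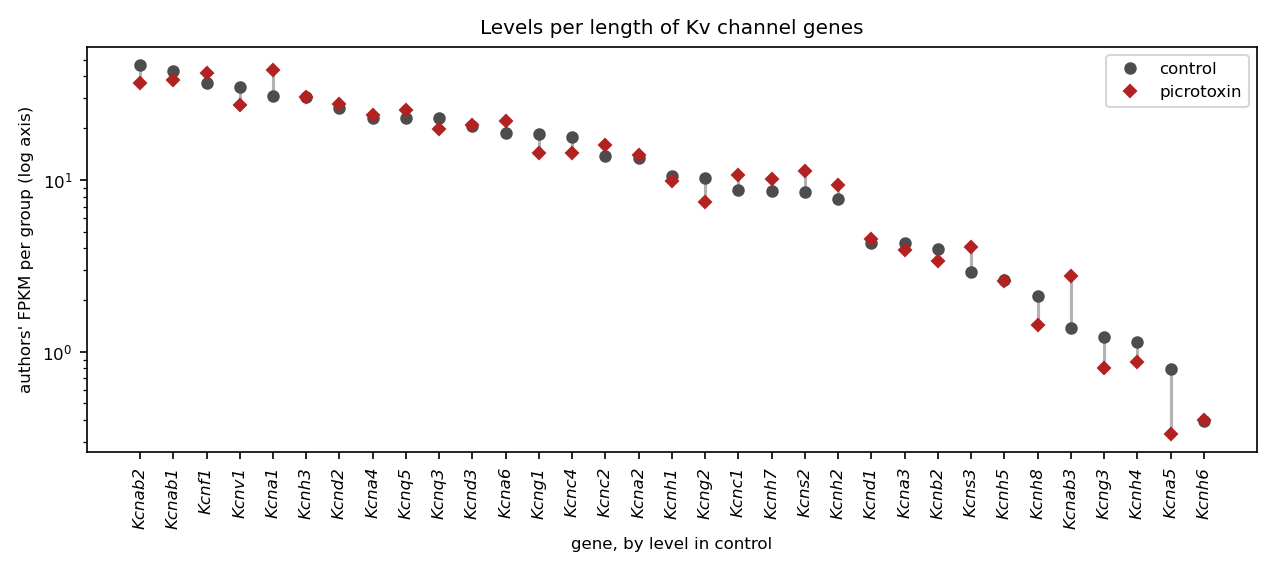
Levels per length of Kv genes as the authors' FPKM per group on a log axis, with circles for control and diamonds for picrotoxin (replicates combined, so no error bars). Genes run from Kcnab2 at 46.4 FPKM in control to Kcnh6 at 0.397, and the widest gaps between arms are those of Kcnab3 (1.38 and 2.77) and Kcna5 (0.791 and 0.333).

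After 48 h of picrotoxin, Kv genes lay above and below their control levels in similar numbers. The median log2 fold change (picrotoxin minus control) over the 37 genes was -0.04, beside -0.01 over all 12605 genes, with 16 genes above 0 and 21 below. Without a block 1 gene, Kcnab3, rose and 0 fell (limma). That is 2.7% of the family beside 3.25% of all genes in either direction, of which 1.67% rose and 1.58% fell. At an unadjusted p under 0.05 there were 9 of 37 (24.3%) beside 17.5% of all genes. With replicate number as a block 7 rose and 8 fell, or 40.5% beside 19.5% of all genes. Those that rose with the block were Kcna1, Kcna6, Kcnc1, Kcns2, Kcns3, Kcnh2 and Kcnab3 (18.9% of the family beside 9.45% of all genes). Those that fell with it included Kcnc4, Kcng1, Kcng2, Kcnv1, Kcnh8 and Kcnab2 (8 genes, 21.6% beside 10.1%). The 8, like the 9 at an unadjusted p under 0.05, also hold Kcna5. It met the minimum of 10 only through its control libraries, and without it 7 of 36 genes (19.4%) fell with the block. When both libraries of a replicate number were left out of the block fit, 7 of the 15 passed whichever number was omitted, among them Kcna1, Kcnab2, Kcnab3, Kcng1, Kcng2 and Kcnv1.

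**Figure D2:**
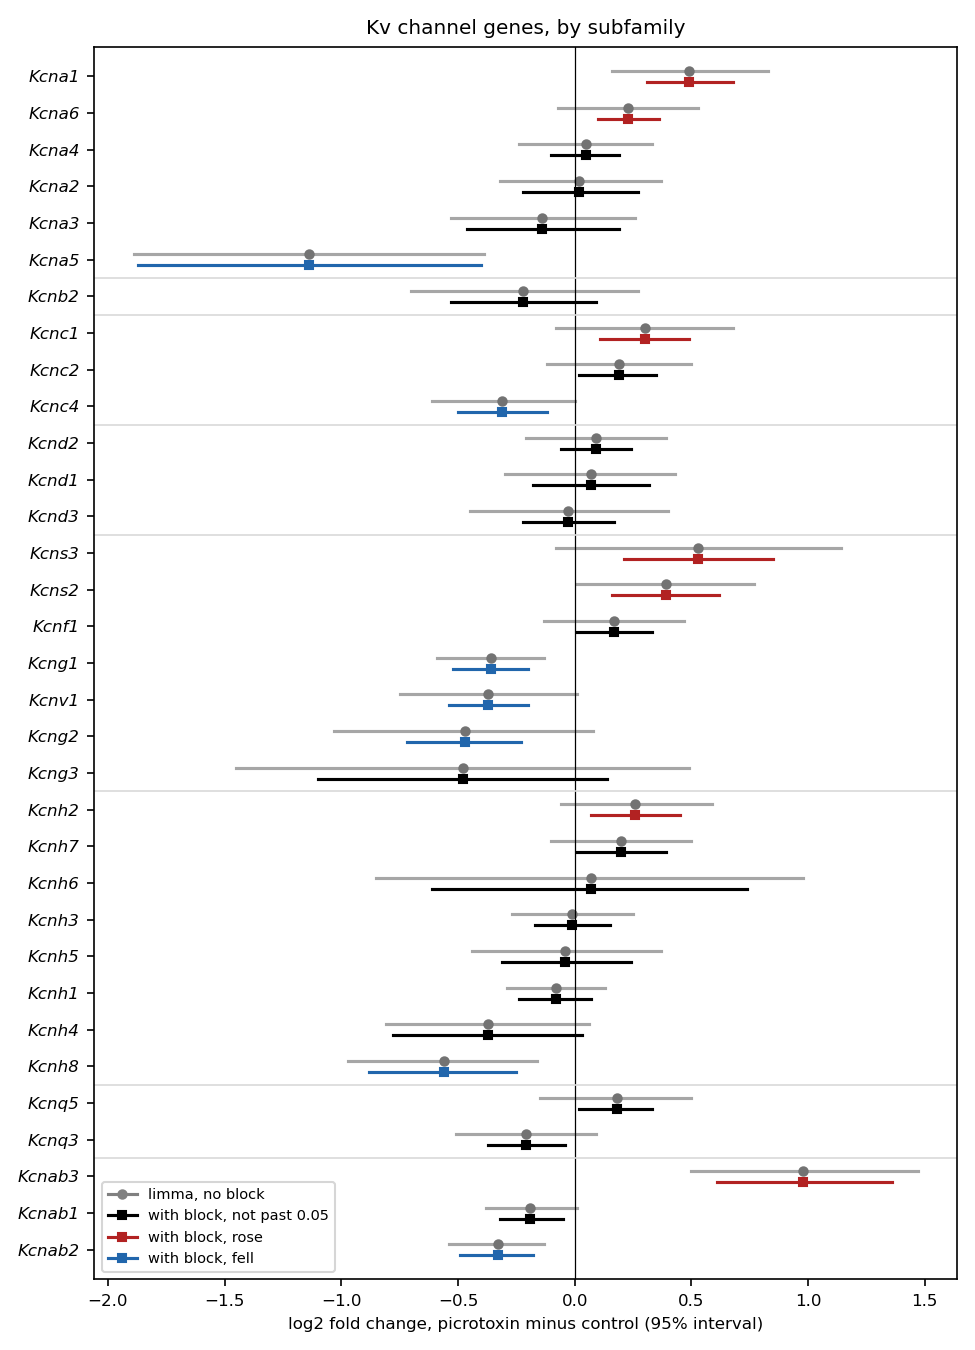
Log2 fold change of Kv genes with its 95% interval, by subfamily, from limma without a block (grey circles) and with replicate number as a block (squares). Kcnab3 at 0.98 and Kcna5 at -1.14 lie farthest from 0. Genes that rose (red) and fell (blue) with the block stand side by side within the Kcnc, Kcnh, Kcnab and silent subunit groups. In the Kcna group the only blue gene is Kcna5, which met the minimum of 10 only through its control libraries.

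Among the beta subunits, Kcnab3 rose about 2-fold from a low level while both abundant genes were lower. Kcnab3 encodes a beta subunit that binds Kv1 channels and can speed their inactivation. Its scaled counts were 35.04, 28.8 and 41.3 in control libraries 3, 10 and 20, and 71.9, 57.4 and 81.6 in picrotoxin libraries 3, 10 and 20. The lowest picrotoxin value lay above the highest control value, and the change was 1.02, 0.97 and 0.96 on the log2 scale in the 3 replicate numbers. The fitted fold was 1.98 (log2 fold change 0.98, SE 0.22, adjusted p = 0.0408; with the block SE 0.18, adjusted p = 6.3e-04). Without a block the call was lost on omitting any single library other than picrotoxin 20 (adjusted p up to 0.182). In the authors' deposited table its q was 0.00278. The gene (ENSRNOG00000008480) lies at chromosome 10, 55669297 to 55675728, in the authors' table (genome build not given in the sources used here).

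The promoter of Kcnab3 is shown because it is the gene that passed without a block. The sequence is that of RefSeq on GRCr8, chr10:54546388-54546687, plus strand, from 250 bases before to 50 after the gene's start. Capitals mark TGACG, the core of the cAMP response element, to which the activity-regulated factor CREB binds:
Kcnab3: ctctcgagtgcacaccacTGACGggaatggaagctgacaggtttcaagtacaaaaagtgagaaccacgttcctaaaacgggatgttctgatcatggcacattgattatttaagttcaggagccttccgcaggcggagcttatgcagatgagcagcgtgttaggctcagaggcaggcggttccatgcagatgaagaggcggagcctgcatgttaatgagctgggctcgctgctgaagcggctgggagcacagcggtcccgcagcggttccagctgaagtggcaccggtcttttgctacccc
Of 33469 such windows of 300 bases, 21.2% held TGACG on either strand, among them 4 of the 26 windows found for 24 of the 37 genes (Kcnab1, Kcnab3, Kcnh8 and Kcnq5). The full element TGACGTCA, which contains that core, was in 1.83% of all windows and in 0 of the 26. The AP-1 letters TGAGTCA (4.63% of all windows) and the EGR letters GCGTGGGCG (0.544%) were in 0 of the 26, and the E-box CACGTG (6.42%) in that of Kcnh4. A match or its absence describes these letters only.

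Kcnab2, which encodes the beta subunit most abundant per length here, had scaled counts of 819, 824 and 928 in controls 3, 10 and 20 and 692, 680 and 667 after picrotoxin. Every picrotoxin value lay below every control value. Its log2 fold change was -0.33 (SE 0.09), with adjusted p = 0.0846, and with the block it fell (adjusted p = 0.00307). Kcnab1, the third beta subunit gene, went from 1880 ± 79.0 to 1653 ± 126.4 (SD, n = 3), also without overlap, but passed in neither fit (log2 fold change -0.19, adjusted p = 0.312 without and 0.0514 with the block).

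In the Kcna group, which encodes Kv1 subunits of axons and terminals, Kcna1 and Kcna6 were higher after picrotoxin, Kcna5 was lower, and Kcna2, Kcna3 and Kcna4 were near their control levels. Kcna1 encodes Kv1.1, which damps axonal excitability and is known for its mutations in episodic ataxia. It had scaled counts of 567, 451 and 564 in controls 3, 10 and 20, and 659, 666 and 922 after picrotoxin. The groups did not overlap, and picrotoxin library 20 was the highest of the 6. Its log2 fold change was 0.49 (95% interval 0.16 to 0.83), with adjusted p = 0.111, and with the block it rose (interval 0.31 to 0.68, adjusted p = 4.6e-04). The authors' deposited table gives it a q of 0.00500.

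Kcna6 (Kv1.6) was the Kcna gene with the most fragments, at 1475, 1434 and 1913 in controls 3, 10 and 20 and 1760, 1698 and 2182 after picrotoxin. The arms overlapped, because control 20 was above picrotoxin 3 and 10, but the differences within replicate numbers were alike at 0.25, 0.24 and 0.19 on the log2 scale. It did not pass without a block (adjusted p = 0.436) and rose with it (log2 fold change 0.23, adjusted p = 0.0134). The block fit with 1 replicate number omitted called Kcna6 in 2 of 3 omissions (adjusted p up to 0.143). Kcna5 (Kv1.5), a subunit best known from heart and smooth muscle, was barely present, with scaled counts of 12.7, 18.9 and 19.1 in controls and 7.78, 8.35 and 5.23 after picrotoxin. The arms did not overlap. Its log2 fold change was -1.14, given as a description only, because its mean of 7.12 after picrotoxin was under the minimum of 10 and its controls alone brought it into the test. Kcna1 and Kcna5 are neighbours on chromosome 4 in the authors' table, at 226189074 to 226190562 and 226075050 to 226076859.

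The other Kcna genes gave intervals around 0. Kcna2 (Kv1.2), a partner of Kv1.1 in axons, stood at 379 ± 39.0 and 389 ± 81.0 in control and picrotoxin libraries, with a log2 fold change of 0.02 (with the block, -0.22 to 0.27). Kcna4 (Kv1.4), the subunit of a fast inactivating axonal current, stood at 887 ± 92.3 and 922 ± 147.1, with 0.05 (-0.10 to 0.19). Kcna3 (Kv1.3), best known from lymphocytes, stood at 78.3 ± 2.87 and 71.8 ± 11.8, with -0.14 (-0.46 to 0.19; all SD, n = 3). The bracketed intervals are 95% intervals with the block, and that of Kcna3 is the widest of the 3.

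In the Kcnq group, whose products carry the M current, Kcnq3 had scaled counts of 744, 647 and 794 in controls and 743, 529 and 630 after picrotoxin. The arms overlapped through picrotoxin 3, which nearly equalled its control, and neither fit called it (log2 fold change -0.21, adjusted p = 0.496 without and 0.0718 with the block). Kcnq5 had scaled counts of 549, 630 and 782 in controls and 670, 686 and 849 after picrotoxin. It was higher in each replicate number yet passed in neither fit (0.18, adjusted p = 0.607, with the block 0.102).

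In the Kcnc group, Kv3 subunits that allow fast spiking, Kcnc1 rose and Kcnc4 fell with the block. Kcnc1 (Kv3.1) had scaled counts of 262, 275 and 361 in controls 3, 10 and 20 and 356, 305 and 451 after picrotoxin. Control 20 lay above picrotoxin 3 and 10, so that the arms overlapped. Its log2 fold change was 0.30 (SE 0.17, adjusted p = 0.417), and with the block it rose (SE 0.09, adjusted p = 0.0238). Kcnc4 (Kv3.4), a fast inactivating subunit, had scaled counts of 452, 511 and 570 in controls and 362, 487 and 393 after picrotoxin, also with overlap. It stood at -0.31 (SE 0.14, adjusted p = 0.280) and fell with the block (SE 0.09, adjusted p = 0.0200). With 1 replicate number omitted, the block fit called Kcnc1 in 2 of 3 omissions and Kcnc4 in 1 (adjusted p up to 0.233 and 0.143). Kcnc2 (Kv3.2), at 468 ± 48.5 and 536 ± 95.7 (SD, n = 3), passed in neither fit, with a log2 fold change of 0.19. Beside these, Gad1 and Gad2, which mark inhibitory neurons, stood at 0.30 and 0.38 and rose with the block (adjusted p = 0.00160 and 4.2e-04), while Slc32a1 stood at 0.00, and Pvalb, the marker of fast-spiking cells, had at most 5.83 scaled counts in any library.

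Among Kcnb and Kcnd genes, Kcnb2 (Kv2.2) stood at 102 ± 25.1 and 87.5 ± 17.4 over a gene model of only 2558 bases and passed in neither fit. Kcnd2 (Kv4.2), the pore of the dendritic A current, had scaled counts of 523, 561 and 675 in controls and 551, 594 and 731 after picrotoxin. That is a log2 fold change of 0.09, with an interval of -0.06 to 0.24 with the block. Kcnd3 (Kv4.3) went down in replicate numbers 3 and 10 (-0.18 and -0.20) and up in 20 (0.30), and Kcnd1 (Kv4.1) averaged 155 ± 20.2 and 162 ± 26.1 (SD, n = 3).

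Among the silent subunit genes, 2 Kcns genes rose and 3 Kcng or Kcnv genes fell with the block, while Kcnf1 and Kcng3 passed in neither fit. Kcns2 had scaled counts of 161, 143 and 179 in controls 3, 10 and 20, and 197, 179 and 265 after picrotoxin. The arms met at 179, with picrotoxin 10 just under control 20. It changed by 0.39 on the log2 scale (adjusted p = 0.261), and with the block it rose (adjusted p = 0.0169). Kcns3 had scaled counts of 100, 93.5 and 49.8 in controls and 113, 141 and 89.96 after picrotoxin, with both libraries of number 20 the lowest of their arms. It stood at 0.53 (adjusted p = 0.367) and rose with the block (adjusted p = 0.0188). With a replicate number left out of the block fit, Kcns2 and Kcns3 each passed in only 1 of the 3 omissions (adjusted p up to 0.0829 and 0.0685).

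Kcnv1, a silent subunit gene of brain and the most abundant of this group in fragments, had scaled counts of 1482, 1330 and 1215 in controls and 1279, 1138 and 766 after picrotoxin. Number 20 was lowest in each arm and fell farthest, by 0.67 on the log2 scale beside 0.21 and 0.22. It passed only with the block (log2 fold change -0.37, adjusted p = 0.308 without and 0.00375 with the block). Kcng2 went from 162, 291 and 220 to 134, 219 and 131 (-0.47, adjusted p = 0.375, with the block 0.00677), and its arms overlapped. Kcng1 went from 562, 644 and 549 to 439, 486 and 438 with no overlap (-0.36, adjusted p = 0.0971, with the block 0.00217). The value of Kcng1 is uncertain, because its model of 130801 bases overlaps Adnp, Dpm1 and Mocs3, at means of 2543, 715 and 257 scaled counts beside 519.5, and whether strand was counted is unknown. Those genes stood at -0.26, 0.22 and 0.13. With the block Adnp fell (adjusted p = 0.00435, without it 0.235), the same direction as Kcng1, and Dpm1 rose (0.0429, without it 0.370). Kcnf1, abundant per length, stood at 645 ± 55.1 and 733 ± 137 (0.17, with the block adjusted p = 0.129), and Kcng3, at 22.7 ± 11.7 and 15.1 ± 6.27 (SD, n = 3), passed in neither fit.

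Of the 8 Kcnh genes, Kcnh2 rose and Kcnh8 fell with the block. Kcnh8 (ELK) had scaled counts of 102, 103 and 89.0 in controls 3, 10 and 20, and 69.0, 76.2 and 54.4 after picrotoxin. The arms did not overlap. It stood at -0.56 (SE 0.18, adjusted p = 0.130), and with the block it fell (SE 0.15, adjusted p = 0.0114). Kcnh2 (ERG), which carries a repolarizing current in heart, had scaled counts of 377, 343 and 408 in controls and 386, 423 and 558 after picrotoxin. The difference was 0.04 in number 3 and 0.45 in number 20, and it passed only narrowly with the block (0.26, adjusted p = 0.409, with the block 0.0477). When 1 replicate number was omitted, the block fit called Kcnh2 in 1 of 3 omissions and Kcnh8 in 2 (adjusted p up to 0.253 and 0.0785).

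Kcnh3 (ELK), the Kcnh gene with the most fragments, had scaled counts of 1362, 1472 and 1413 in controls and 1409, 1645 and 1195 after picrotoxin. Its log2 fold change was -0.01, or 0.01 under quantile scaling, but its model overlaps Mcrs1 and Spats2, at means of 1340 and 706 beside 1416, so this value is uncertain too. Kcnh1 (EAG) was steady across all 6 libraries, at 603 ± 28.1 and 570 ± 27.4 (-0.08, with the block -0.24 to 0.07). Kcnh7, at 387 ± 17.5 and 449 ± 76.6, and Kcnh5, at 114 ± 14.4 and 112 ± 22.0, passed in neither fit. Kcnh4 was lower in each replicate number, without overlap, at 53.1 ± 5.92 and 40.7 ± 3.73 (-0.37, with the block adjusted p = 0.195). Kcnh6 had 16.7 ± 8.28 and 16.8 ± 5.70 (SD, n = 3).

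**Figure D3:**
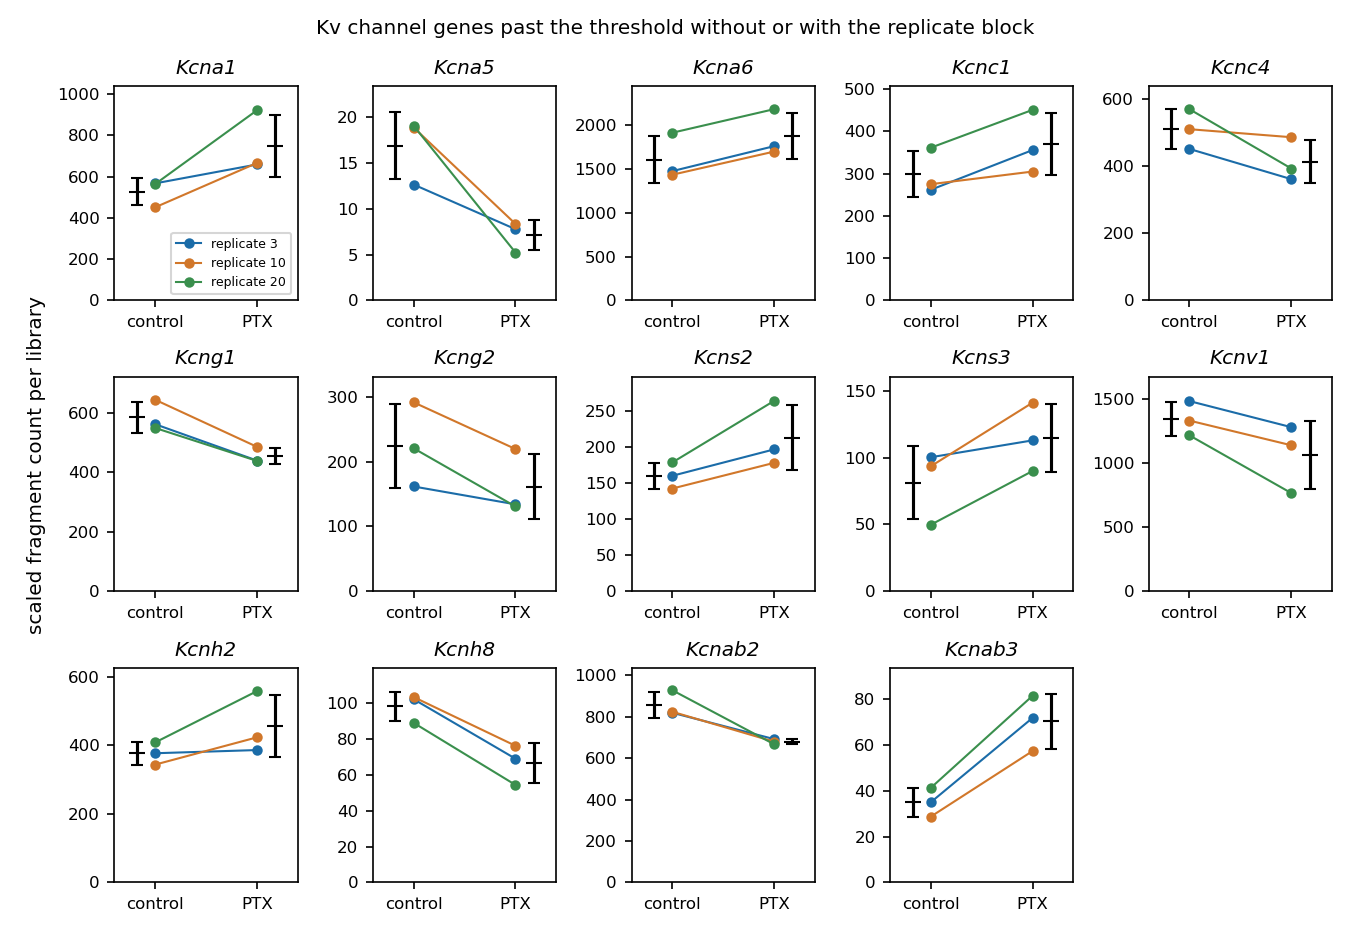
Scaled fragment counts of Kv genes that passed with the replicate block, of which Kcnab3 also passed without it. Lines join control and picrotoxin (PTX) libraries of the same number and black marks give the mean and SD of 3 libraries. All 3 lines slope the same way in each panel, while the height of the lines differs between replicate numbers, as for Kcna6 and Kcng2. The block fit favours genes whose differences agree between numbers, so the like slopes follow in part from how the panels were chosen.

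Without regard to a model, 2 of the 37 genes (Kcna1 and Kcnab3) had every picrotoxin library above every control library, 5.41% beside 11.5% of all genes. The reverse held for 7, among them Kcna5, Kcnab1, Kcnab2, Kcng1, Kcnh4 and Kcnh8, 18.9% beside 11.6%. Within replicate numbers, 11 genes were higher in all 3 (29.7% beside 25% of all genes) and 13 lower in all 3 (35.1% beside 26.6%). The 7 and the 13 both hold Kcna5, which met the minimum of 10 only through its control libraries. Of the genes marked significant in the authors' deposited table, 2 of the 37 were higher, Kcna1 and Kcnab3, and 1 lower. That is 5.41% and 2.7% beside 3.77% and 3.61% of all genes, with directions taken from the limma fit without a block.

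Ratios within a library show how subunits of one group moved against each other. The pairs were chosen after the values were seen, so they are given without a test. Scaled counts of Kcnab3 over those of Kcnab2 gave 0.0428, 0.0349 and 0.0445 in controls 3, 10 and 20, and 0.104, 0.0845 and 0.122 after picrotoxin. That every picrotoxin ratio exceeded every control ratio had to follow, since neither gene overlapped between arms and they moved in opposite directions. Kcnc2 over Kcnc4 went from 0.985, 0.852 and 0.918 to 1.33, 0.989 and 1.64, where picrotoxin 10 only just cleared the controls. Kcna1 over Kcna2 went from 1.68, 1.09 and 1.47 to 1.75, 2.11 and 1.94, with little change in number 3. Kcnh2 over Kcnh8 went from 3.69, 3.32 and 4.58 to 5.59, 5.55 and 10.25, highest by far in picrotoxin 20. Ratios of Kcnc1 over Kcnc4 overlapped between arms, at 0.580, 0.539 and 0.634 in controls and 0.984, 0.627 and 1.15 after picrotoxin. These are ratios of fragments, not of transcripts, since gene lengths differ.

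**Figure D4:**
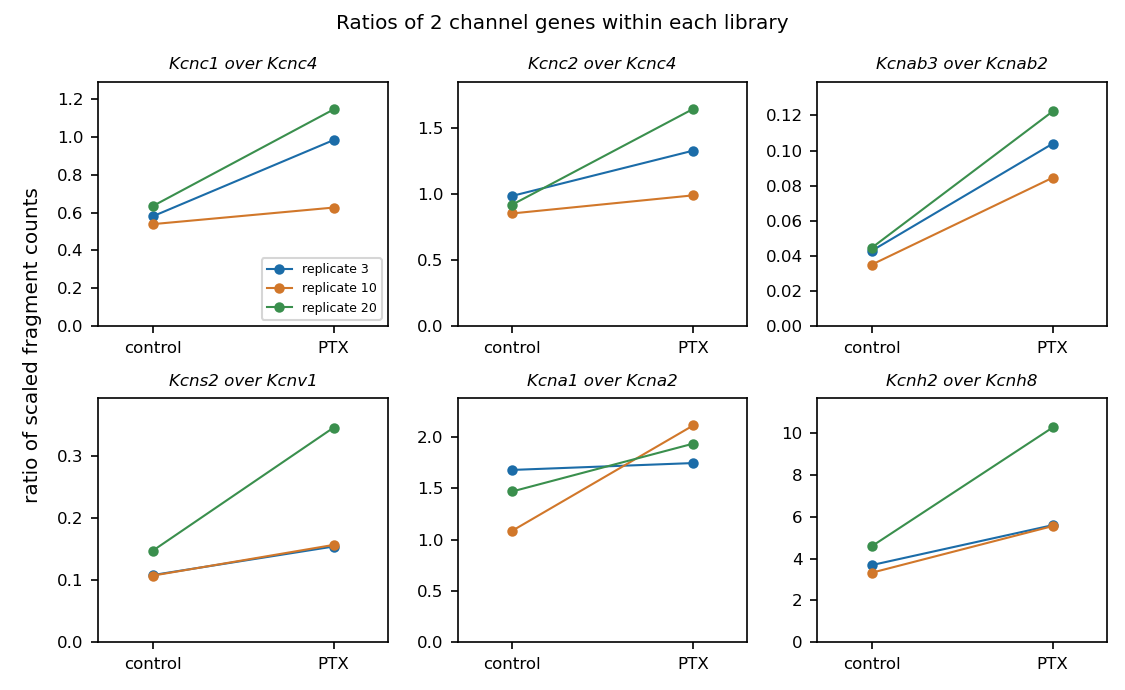
Ratio of the scaled fragment counts of 2 Kv genes in each of the 6 libraries, joined by replicate number (PTX, picrotoxin). Kcnab3 over Kcnab2 rises from a mean of 0.041 in control to 0.104 after picrotoxin in 3 similar lines, whereas Kcns2 over Kcnv1 and Kcnh2 over Kcnh8 are highest in picrotoxin library 20.

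Many Kv genes also differed between replicate numbers within an arm. Control 20 was the highest of the 3 controls for 24 of the 37 genes (40.3% of all genes peaked there) and picrotoxin 20 the highest of its arm for 22 (42.2% of all genes). Kcna6, Kcnc1, Kcnc2, Kcnd2 and Kcnq5 were among those highest in number 20 in both arms, and Kcns3 and Kcnv1 were lowest there in both. Gad1 and Gad2 were also highest in number 20, at 9366 and 5788 in control and 12142 and 8499 after picrotoxin. The median coefficient of variation of the 37 genes was 11.1% in control and 17.0% after picrotoxin, beside 8.9% and 12.1% over all genes. With both libraries of number 20 left out, 2 rose and 2 fell without a block (10.8% beside 8.28% of all genes), and 4 rose and 6 fell with it (27% beside 20.3%).

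The authors' deposited UTR table, with 1 length per gene model and arm and no replicates, held 31 of the 37 genes, and 29 of these had a 3' UTR length in both arms, in 31 entries. Of those entries, 77.4% differed by 20 bases or less between arms, beside 74.6% of all entries. Long 3' UTRs stayed the same to within 10 bases in Kcnh7 (9186 and 9183 bases in control and picrotoxin), Kcna2 (9160 and 9164) and Kcnq3 (7940 and 7949). Over 100 bases of difference were listed for 4 genes, in 12.9% of the entries beside 11.5% of all entries. Kcnab3 had 70 bases in control and 970 after picrotoxin, with a 5' UTR of 43 and 1887 bases, at mean scaled counts of 35.04 and 70.3. Kcnh5 had 2766 and 1489, Kcnd2 2353 and 2486, and Kcnh8 90 and 211. How these ends were called is unknown, and no error can be set on them.

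Among 23 tested genes of proteins that bind or anchor Kv channels, 0 rose and 1 fell without a block, and 1 rose and 8 fell with it, with a median log2 fold change of -0.15. The 1 that fell without a block is 4.35% beside 1.58% of all genes, and with the block 4.35% rose beside 9.45% and 34.8% fell beside 10.1%. The gene that fell was Akap5, whose product anchors kinases and calcineurin at Kv7 channels and glutamate receptors. It had scaled counts of 721, 782 and 970 in controls 3, 10 and 20 and 412, 379 and 578 after picrotoxin, without overlap (-0.86, SE 0.17, adjusted p = 0.0246). Adam23, a receptor of Lgi1 in axonal Kv1 complexes, went from 2353 ± 285 to 3034 ± 305 (SD, n = 3) and rose with the block (0.37, adjusted p = 0.106, with the block 2.8e-04). Among the partners of Kv4 channels, Kcnip4 (-0.43) and Dpp10 (-0.29) fell with the block (adjusted p = 0.00260 and 0.00804), Kcnip3 stood at -0.24 and passed in neither fit, and Dpp6 stood at 0.06. The scaffolds Dlg2 (-0.33) and Dlg4 (-0.19), and Cntn2 (-0.51) and Adam11 (-0.22) of axonal Kv1 sites, fell with the block too.

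Of the 12 rows that were matched but left out for low values, 4 were at 0 in every library, 2 of them Kcna10 and the others Kcne1 and Kcne3. The nearest to the minimum were Kcne2 and Kcne4, at means of 7.89 and 4.16 scaled counts, and among those just above it were Kcna5 and Kcnh6 at 11.99 and 16.7. No Kcne gene, which encodes small transmembrane partners of Kv channels, reached the minimum of 10. Kcnq1, the cardiac Kv7 gene, averaged 4.03.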

How the data were processed

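PolyA RNA of 6 libraries (3 control, 3 picrotoxin) was used. Cuffdiff and Cuffnorm, Cufflinks 2.2.1, bedtools 2.22.1 and STAR 2.3.1z12 are listed as tools in the submitters' processing notes, whose genome build was not given in the sources used here. The deposited signal per gene and library is a fragment count divided by a size factor: of values up to 20 steps, 99.93% or more were whole multiples, within 0.1, of a step between 0.899 and 1.06. From the authors' deposited comparison table came each group's FPKM and the q-value, while its p-value and its test statistic, a score, were not used. UTR lengths are in bases, per the file headers. limma 3.58.1 (trend, robust, two-sided, R 4.3.3) was fitted on log2(value + 1), so fold changes of low genes are understated. Per-library FPKM was not used. The filter is on the mean over all libraries and uses no arm label, but Kcna5 met it only through its control libraries.

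Deviations from the arm means correlated by 0.40, 0.389 and 0.534 between libraries numbered 3, 10 and 20 and by at most 0.031 otherwise. The low values between unlike numbers follow in part from the high ones, since deviations from a mean of 3 libraries cancel out per gene. The numbers, taken from the titles, were treated as pairs because of the values between like numbers. The labels do not say what a number marks, so p-values measure the spread between these samples. Genes, lists and partners (25 named, 24 found, 23 tested) were chosen with earlier results of these data known. Library values were given for the reported Kv genes called in either fit and for Akap5. Of the Kv genes called in neither, they were given for Kcnd2, Kcnh3, Kcnq3 and Kcnq5. Partners called only with the block were named after their values were seen. Some genes of the family are counted in the totals but not reported here. The fit was tested on simulated data. Alternatives were other pseudocounts, filters, scalings, a stricter threshold, limma without trend, the block and omissions.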

Additional observations from a re-analysis of the deposited data

How the results depend on the processing

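Without a block, 410 genes passed in the main analysis, among them 1 Kv gene that rose (Kcnab3), 0 that fell and 1 partner (Akap5). With the replicate block, which uses the pairing of the libraries, these were 2459 genes, 7 Kv genes that rose, 8 that fell and 9 partners; the cause of this difference was not tested. Limma without trend and robust gave 156 genes, 0, 0 and 0, and an adjusted p under 0.01 gave 73, 0, 0 and 0. Quantile scaling left 0 Kv genes that rose, and with no filter on low values 1 Kv gene fell. TMM and median-ratio scaling, pseudocounts of 0.1 and 5 and the other filters gave 344 to 422 genes. They kept the Kv and partner counts of the main analysis and turned none of these Kv genes.

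Omitting 1 library, or both of a replicate number, gave 0 to 1044 genes, 0 to 2 Kv genes that rose, 0 to 2 that fell and 0 to 5 partners without a block; the 0 genes came without replicate 3, where 1407 had an unadjusted p under 0.05. With the replicate block, omitting number 3 gave 1409 genes, 4, 6 and 7, omitting number 10 gave 1935, 6, 8 and 11, and omitting number 20 gave 2564, 4, 6 and 9. These omissions of both libraries were chosen after seeing the data.

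The log2 fold change changed sign in 8 of the Kv genes reported, each within 0.09 of 0 in the main analysis. Under quantile scaling these were Kcnh3 (0.01) and Kcnh6 (-0.03). With the replicate block and one number omitted, Kcna2 gave -0.04 and -0.12, Kcnd3 0.05 and 0.06, Kcnh3 0.10, Kcnh5 0.02 and Kcnh6 -0.35. Omissions without a block gave -0.13 to 0.23 for Kcna2, -0.08 to 0.14 for Kcna4, -0.06 to 0.17 for Kcnd1, -0.03 to 0.20 for Kcnd2 and -0.27 to 0.14 for Kcnd3. They gave -0.13 to 0.11 for Kcnh3, -0.18 to 0.09 for Kcnh5 and -0.35 to 0.41 for Kcnh6.

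Tests on counts by DESeq2 and edgeR, planned as alternatives, were not run, since the deposited values are scaled and not whole counts. Genes near the minimum of 10 scaled counts had the widest intervals, and 3 libraries per arm limit all calls.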
